A study of Mus musculus with 4 samples.

Results

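Cd40 and Cd83 are 2 of the 22631 gene rows of the deposited single-cell matrices. They were picked by gene symbol, with earlier results of these data known. They were followed in migratory dendritic cells (DCs), which carry antigen from the skin to the lymph node, by DC type, reporter population and treatment. The cells came from ear-draining lymph nodes of Tnfsf4KI/+ mice, which are heterozygous for an allele that makes blue fluorescent protein (BFP) from the gene of the costimulatory ligand OX40L. One group of mice had MC903, a vitamin D analogue that inflames skin, on the ears on days 0, 2 and 4, and the other group was untreated. On day 5, cells without B220, with intermediate CD11c and high MHC class II were sorted as 5000 BFP+ and 7000 BFP− cells of each group. The 4 populations were therefore MC903 BFP+, MC903 BFP−, untreated BFP+ and untreated BFP−, and every mouse, untreated ones included, carried the reporter allele. Each population was 1 pool of cells, and no source used here gives the number or age of its mice. The BFP+ and BFP− cells of a treatment shared a capture, whereas the MC903 and untreated cells were captured apart and sequenced on different lanes, so treatment, capture and lane cannot be told apart.

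CD40 is a receptor of the TNF receptor family through which helper T cells, by CD40 ligand, license DCs. It signals through TRAF adaptor proteins to both the canonical and the non-canonical NF-κB pathway, and this drives IL-12 and the survival of the DC. CD83 is an immunoglobulin-family surface protein and a classical marker of mature DCs. In mouse cells it holds MHC class II and CD86 at the surface by opposing the ubiquitin ligase MARCH1. Both genes are switched on as DCs mature, together with Ccr7, the chemokine receptor that leads DCs into lymph vessels, and Fscn1, the actin bundler fascin of mature DCs.

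On GRCm38 with the GENCODE M21 annotation, Cd40 (ENSMUSG00000017652) lies on the plus strand of chromosome 2, from 165055627 to 165072948, and its transcript 201 has 9 exons and 2986 bases. Cd83 (ENSMUSG00000015396) lies on the plus strand of chromosome 13, from 43784775 to 43803132, and its transcript 201 has 5 exons and 2477 bases. No other annotated gene overlaps either of them on either strand. A population is known only from the antibody-borne hashtag read with each cell, so the 4 deposited hashtag oligonucleotides are shown, 5′ to 3′ and all in lower case since no base is singled out.
MC903 BFP+, hashtag A0303: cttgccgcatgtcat
MC903 BFP−, hashtag A0304: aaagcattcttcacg
untreated BFP+, hashtag A0301: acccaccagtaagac
untreated BFP−, hashtag A0302: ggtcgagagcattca

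The MC903 capture held 57148072 UMIs (unique molecular identifiers, 1 per captured transcript) in 6316 barcodes, and the untreated capture 33525154 UMIs in 9520 barcodes. A barcode was given to the population whose hashtag made up at least 80% of its hashtag counts, which left 170 mixed barcodes after MC903 (3.02% of those kept) and 2109 in the untreated capture (25%). DCs were barcodes with at least 3 UMIs of Fscn1, Ccr7, Cacnb3 and Il4i1 together and no sizeable RNA of another lineage. They numbered 1426 in MC903 BFP+, 3123 in MC903 BFP−, 415 in untreated BFP+ and 3602 in untreated BFP−, with median UMIs of 10230, 9613, 6320 and 2714 in that order. The reporter transcript BFP stood at 107 UMIs per 1000000 UMIs (CPM) in MC903 BFP+ against 10.5 in MC903 BFP−, and at 82.1 in untreated BFP+ against 6.54 in untreated BFP−. Untreated DCs with mixed hashtags held 58.9 CPM of BFP, closer to the BFP+ than to the BFP− population. DC barcodes with RNA of another lineage, which were left out, made up 4.99% of MC903 BFP+, 5.69% of MC903 BFP−, 14.3% of untreated BFP+ and 26.2% of untreated BFP− barcodes. The captures shared 23 barcode sequences.

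Under both treatments BFP+ DCs held less Cd40 than BFP− DCs, and in both reporter populations Cd40 was lower after MC903 than without it, by amounts well under 1.5-fold. Its level was 271.7 CPM in MC903 BFP+ (95% interval 264 to 280), 369 CPM in MC903 BFP− (362 to 375), 324 CPM in untreated BFP+ (303 to 345) and 419 CPM in untreated BFP− (409 to 430). The 4 intervals did not overlap, and untreated BFP− DCs were highest and MC903 BFP+ DCs lowest. These intervals are exact Poisson intervals on 939 to 11683 Cd40 UMIs and cover counting error only. With 1 pool per population there is no replicate error and no test, so each ratio describes these libraries.

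Cd83 too was highest in untreated BFP− and lowest in MC903 BFP+ DCs. Its level was 947 CPM in MC903 BFP+ (931 to 962), 1013 CPM in MC903 BFP− (1002 to 1025), 1115 CPM in untreated BFP+ (1077 to 1154) and 1344 CPM in untreated BFP− (1326 to 1363), from 3233 to 32120 UMIs. Again no intervals overlapped, but for Cd83 both untreated populations stood above both MC903 populations, whereas for Cd40 the MC903 BFP− level was above the untreated BFP+ level.

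**Figure D1:**
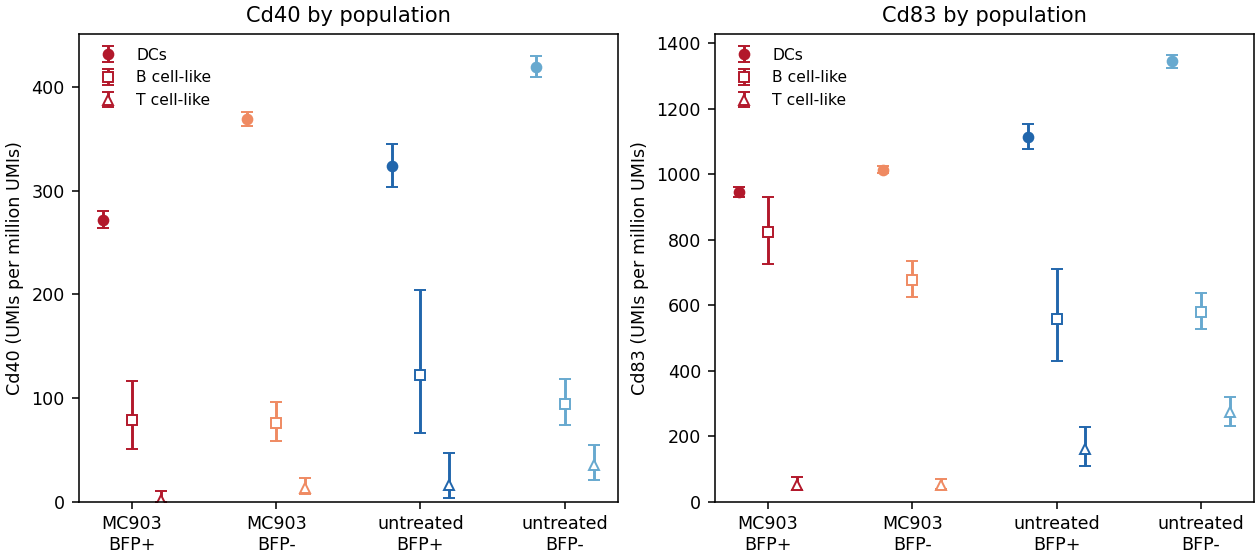
Cd40 (left) and Cd83 (right) in CPM, by population, in DCs (filled circles), B cell-like barcodes (open squares) and T cell-like barcodes (open triangles), with exact 95% Poisson intervals and 1 pool per population. DCs stood above the lymphocytes for Cd40 in every population, from 271.7 CPM in MC903 BFP+ to 419 CPM in untreated BFP−, while B cell-like barcodes held Cd83 at 557 to 823 CPM.

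Between reporter populations, the log2 ratio of Cd40 was −0.44 after MC903 (−0.49 to −0.39, BFP+ over BFP−) and −0.37 in untreated mice (−0.47 to −0.27). For Cd83 it was −0.10 after MC903 (−0.13 to −0.07) and −0.27 in untreated mice (−0.32 to −0.22). Between treatments, Cd40 stood at −0.25 in BFP+ DCs (−0.36 to −0.15, MC903 over untreated) and at −0.19 in BFP− DCs (−0.23 to −0.14), and Cd83 at −0.24 in BFP+ (−0.29 to −0.18) and −0.41 in BFP− DCs (−0.43 to −0.38). All 8 ratios were negative, with folds between 0.737 and 0.934. The BFP+ to BFP− ratio kept its sign for both genes in every alternative tried. The Cd40 ratio between treatments in BFP− DCs did not, since it was 0.02 when 4 DC types were given equal weight, and in BFP+ DCs it ranged from −0.52 with cells thinned to 2000 UMIs to −0.10 with at most 5% mitochondrial UMIs. In BFP− DCs that Cd40 ratio otherwise ranged from −0.31 with thinned cells, and in other DCs alone, to −0.077 with TMM scaling. Between untreated reporter populations, Cd40 stood at −0.24 with thinned cells. Cd83 after MC903 stood at −0.22 between reporter populations with HTODemux, another hashtag caller, and at −0.16 in other DCs alone, and TMM scaling gave −0.15 for Cd83 between treatments in BFP+ DCs.

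Neither gene passed the mark used here for genes that stood apart, a 1.5-fold ratio and 20 CPM or more on the higher side. Of 5022 genes compared between untreated BFP+ and BFP− DCs, 3.29% were higher by that mark and 4.38% lower. Of 4776 genes compared after MC903, 1.24% were higher and 1.49% lower. Between treatments, 3.49% of 4931 genes were higher after MC903 and 3.95% lower in BFP+ DCs, and 4.81% of 4992 genes were higher and 5.09% lower in BFP− DCs. Under TMM scaling, which moved all treatment ratios by 0.09 in BFP+ and 0.11 in BFP− DCs, 66.1% and 65.8% of the genes apart were higher after MC903, against 46.9% and 48.6% with scaling by total UMIs. The median gene had a log2 ratio between −0.04 and −0.01 in the 4 comparisons, so the shifts of Cd40 and Cd83 lay below the centre of all genes but within the 1.5-fold band.

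Non-DC barcodes of the same captures give the level that these genes reach in other cells and in free RNA. In T cell-like barcodes, Cd40 was 1.79 CPM in MC903 BFP+, 13.2 in MC903 BFP−, 16.0 in untreated BFP+ and 35.1 in untreated BFP−, and Cd83 was 51.9, 52.6, 160 and 273 CPM in that order. The Cd40 values of T cell-like barcodes rest on 1, 13, 3 and 19 UMIs. B cell-like barcodes, and B cells are known to express both proteins, held Cd40 at 79.1, 75.7, 122 and 94.7 CPM and Cd83 at 823, 678, 557 and 581 CPM in the same order. The T cell-like level of Cd83 was thus higher in the untreated capture, as in DCs, and its B cell-like level lower there. The part of free RNA in the treatment difference was not tested. The summed level of 14 B cell markers inside the DC populations was 41.3 CPM in both MC903 populations, 82.4 in untreated BFP+ and 143 in untreated BFP−, with 1 marker at 0 in untreated BFP+. That of 13 T cell markers was 249, 211, 248 and 288 CPM in MC903 BFP+, MC903 BFP−, untreated BFP+ and untreated BFP− DCs. Il7r alone held 206, 167, 171 and 130 CPM of these sums in that order. Its log2 ratio between treatments was 0.26 in BFP+ and 0.37 in BFP− DCs. Cd8a, another of the 13, had −0.37 (−0.73 to 0.008) and −1.48 (−1.62 to −1.33). Trbc2 was 5.58 CPM in MC903 BFP− against 21.4 in untreated BFP− DCs. The T cell sums therefore do not show how the markers other than Il7r differed. The sum of 9 monocyte or macrophage markers was 87.1, 77.5, 89.0 and 228 CPM in the same order of populations, with 1 of these 9 at 0 in untreated BFP+. Leaving out every DC with even 1 T or B cell marker UMI gave a Cd40 ratio between treatments of −0.41 in BFP+ and −0.27 in BFP− DCs, and a Cd83 ratio of −0.19 in BFP+ and −0.36 in BFP− DCs.

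Counted per cell at equal depth, a UMI of each gene was found most often in untreated BFP− DCs. After thinning every DC to 2000 UMIs, which left out 11, 34, 37 and 595 shallower cells, a Cd40 UMI was found in 29.7% of 1415 MC903 BFP+ DCs (exact Clopper-Pearson interval 27.3% to 32.1%), 32.7% of 3089 MC903 BFP− DCs (31.1% to 34.4%), 34.9% of 378 untreated BFP+ DCs (30.1% to 40.0%) and 42.5% of 3007 untreated BFP− DCs (40.7% to 44.3%). A Cd83 UMI was found in 69.7% (67.2% to 72.1%), 70.4% (68.8% to 72.0%), 78.6% (74.1% to 82.6%) and 82.4% (81.0% to 83.8%) of the same DCs. The untreated BFP+ interval of Cd40 overlapped those of both MC903 populations, and for Cd83 the MC903 populations overlapped each other but neither untreated one. Among T cell-like barcodes at that depth, 0 of 77 in MC903 BFP+ held a Cd40 UMI. With 3 counts as the limit for a count of 0, this allows a share of up to 3.90%, and the Clopper-Pearson limit is 4.68%. The share was 3.80%, 3.03% and 5.81% in the other 3 populations. For Cd83 the share of T cell-like barcodes was 5.19%, 3.80%, 27.3% and 27.9%, from median depths of 4868.5, 4731, 3908.5 and 2517 UMIs before thinning. Without thinning the Cd40 order turned round, at 68.0% of MC903 BFP+, 65.7% of MC903 BFP−, 59.0% of untreated BFP+ and 54.5% of untreated BFP− DCs, and that order follows the depth of the libraries.

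**Figure D2:**
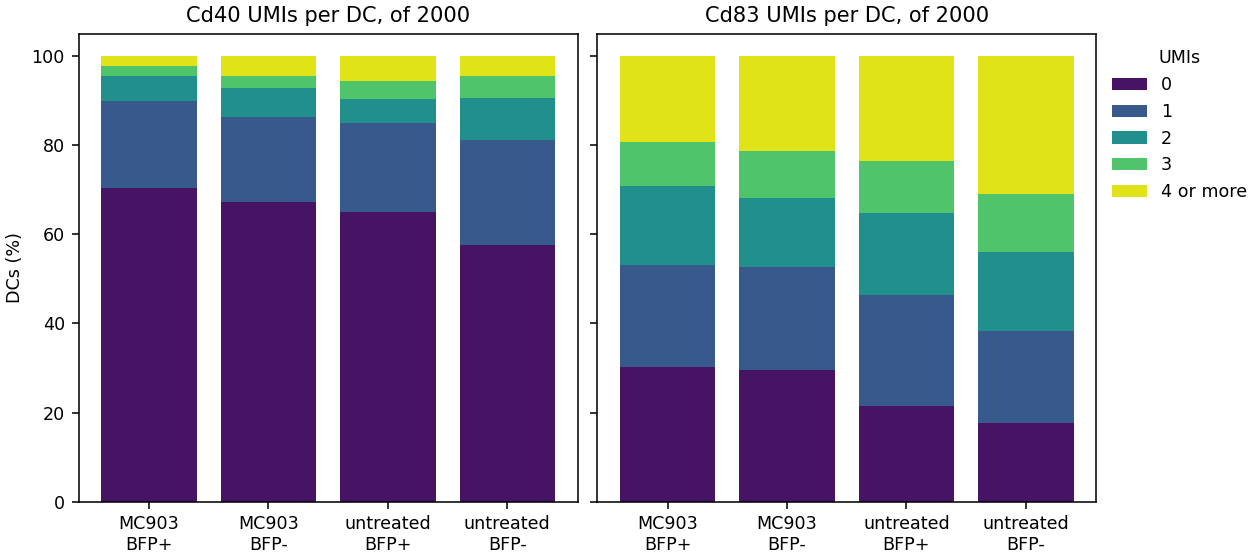
Share of DCs (%) with 0, 1, 2, 3 or at least 4 UMIs of Cd40 (left) or Cd83 (right) among 2000 UMIs per cell, by population. DCs with at least 4 Cd83 UMIs made up 19.2% of MC903 BFP+ and 31.1% of untreated BFP− DCs, and DCs without a Cd40 UMI were the majority everywhere, at 57.5% to 70.3%.

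Among DCs, Cd83 and Cd40 went with different maturation genes. Cd83 was higher in DCs with more Ccr7. At 2000 UMIs per cell, MC903 BFP+ DCs with 0, 1 to 2, 3 to 5 and at least 6 Ccr7 UMIs had 400, 473, 700.5 and 1506 CPM of Cd83, and MC903 BFP− DCs had 500, 493, 758 and 1633 CPM. Untreated BFP+ DCs had 308, 500, 1054 and 1602 CPM and untreated BFP− DCs 679, 799, 1225 and 1975 CPM. The group with the most Ccr7 was thus well above the group with none in each population, although the untreated BFP+ group without Ccr7 held only 26 cells.

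Cd40 did not follow Ccr7 in this way. After MC903 it was lower where Ccr7 was higher, at 370, 271, 230 and 205 CPM over the same 4 groups of MC903 BFP+ DCs and at 473, 406, 317 and 261 CPM in MC903 BFP− DCs. Untreated DCs had no such order, with 596, 282, 272 and 368 CPM in BFP+ and 488, 315, 409 and 433 CPM in BFP− cells. Among DCs with at least 6 Ccr7 UMIs, the Cd40 ratio between treatments was −0.85 in BFP+ (−1.16 to −0.53) and −0.73 in BFP− DCs (−0.87 to −0.59), while among DCs with 1 to 2 it was −0.06 (−0.54 to 0.46) and 0.37 (0.18 to 0.55). Among DCs without Ccr7 it was −0.69 in BFP+ (−1.31 to −0.03, 26 untreated cells) and −0.05 in BFP− DCs (−0.33 to 0.24), and among those with 3 to 5 UMIs −0.24 (−0.70 to 0.24) and −0.37 (−0.53 to −0.21). For Cd83, the ratios in BFP+ DCs were 0.38, −0.08, −0.59 and −0.09 from no Ccr7 to at least 6 UMIs, and only the third had an interval that left out 0. In BFP− DCs they were −0.44, −0.70, −0.69 and −0.27.

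Fscn1 gave the reverse picture. Cd40 stood at 291 CPM in MC903 BFP+ DCs with at least 3 Fscn1 UMIs against 135 CPM in those with fewer, a log2 ratio of 1.11 (0.83 to 1.39). In MC903 BFP− DCs it stood at 402 against 147 CPM (1.45, 1.27 to 1.64), in untreated BFP+ DCs at 405 against 250.0 CPM (0.70, 0.30 to 1.10) and in untreated BFP− DCs at 504 against 228 CPM (1.15, 1.002 to 1.29). Cd83 hardly differed in the same split, with log2 ratios of 0.06, −0.02, 0.06 and 0.19 in that order, and only the last had an interval that left out 0. Split by Ccr7 at the same 3 UMIs, Cd83 had ratios of 1.37 (1.22 to 1.53), 1.38 (1.28 to 1.49), 1.65 (1.34 to 1.97) and 1.09 (1.002 to 1.17). Cd40 had −0.46 (−0.69 to −0.22), −0.58 (−0.71 to −0.45), −0.10 (−0.50 to 0.30) and 0.23 (0.10 to 0.37). In untreated BFP− DCs Cd40 was thus also higher with more Ccr7, though by less than with more Fscn1.

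The number of genes with larger ratios differed between populations. In the Fscn1 split, 42 of 4988 genes exceeded Cd40 in MC903 BFP+, 10 of 5042 in MC903 BFP−, 598 of 5131 in untreated BFP+ and 5 of 5059 in untreated BFP− DCs. In the Ccr7 split, 91 of 5023, 58 of 4990, 201 of 5277 and 19 of 5104 genes exceeded Cd83 in that order. Untreated BFP+ DCs, with 378 cells at this depth, thus had the most genes above both. The share of genes at least 1.5-fold higher was 6.09%, 5%, 14.5% and 1.82% in the Fscn1 split and 12%, 7.49%, 19.8% and 3.15% in the Ccr7 split, for MC903 BFP+, MC903 BFP−, untreated BFP+ and untreated BFP− DCs. Ccr7 and Fscn1 both belong to the gate that defined DCs, so a DC low in one had to hold the others. With the splitting gene taken out of the gate, the Cd40 ratio by Fscn1 was 0.90, 1.74, 0.84 and 1.02 and the Cd83 ratio by Ccr7 was 1.24, 1.51, 1.43 and 1.09. These 2 splits were chosen with the values in view and carry no test.

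**Figure D3:**
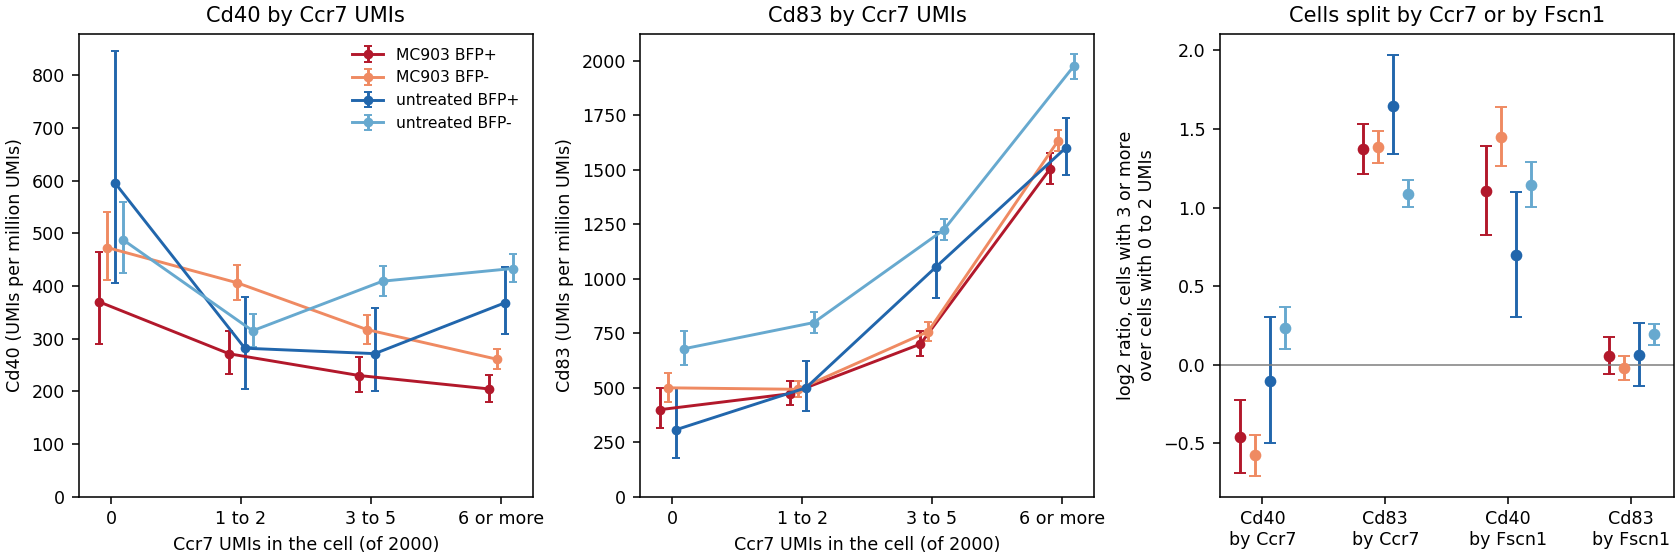
Left and middle, Cd40 and Cd83 (CPM) in DCs thinned to 2000 UMIs and grouped by their Ccr7 UMIs, by population; right, log2 ratio of each gene between DCs with 3 or more and with 0 to 2 UMIs of Ccr7 or of Fscn1, with exact 95% intervals. Cd83 was highest in DCs with at least 6 Ccr7 UMIs in all 4 populations, and Cd40 was higher in DCs with more Fscn1, with ratios of 0.70 to 1.45.

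Detection of the 2 genes in the same cell was only loosely linked. Among MC903 BFP+ DCs, 31.3% of those with a Cd83 UMI held a Cd40 UMI, against 25.9% of those without. The shares were 34.7% against 27.9% in MC903 BFP−, 36.0% against 30.9% in untreated BFP+ and 44.9% against 30.9% in untreated BFP− DCs. Spearman's rho of the UMIs over cells was 0.04, 0.08, 0.13 and 0.17 in that order. Cells share library and depth and UMIs are sparse, so these weak values are a description only.

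DC types were called from markers other than Cd40 and Cd83. Langerhans cell-like DCs held Epcam or other epithelial genes, mature cDC1-like DCs Apol10b, Laptm4b, Smagp or Asprv1, less mature cDC1-like DCs Xcr1, Clec9a or related genes, and cDC2-like DCs Cd209a, Mgl2, Clec10a or Cd209d. Markers outside the gates were mostly higher in the first 2 types, with Mfge8 at log2 ratios of 2.05 after MC903 and 1.53 untreated in Langerhans cell-like over other DCs, and Gclc at 1.70 and 1.33 in mature cDC1-like over other DCs. Apol7c was at 1.66 and 0.21 in mature cDC1-like over other DCs. Snx22 had 14 UMIs in mature cDC1-like DCs after MC903 and 1 untreated. The untreated level of Snx22 was lower than in other DCs, at 0.31 against 0.60 CPM, from 1 and 9 UMIs. In less mature cDC1-like DCs, Wdfy4, a gene of cross-presentation, was at 0.94 after MC903 and 3.34 untreated, Cd24a at 0.33 and 1.28, and Irf8, a factor of cDC1, at −0.18 and 0.64. The cDC2-like DCs had Sirpa at 0.96 and 0.77, Irf4 at 0.06 and 0.32 and Ccl17 at 0.34 and −1.20, with 0 and 1 UMIs of Itgam. Most DCs passed no type gate and are called other DCs.

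Across the 13 combinations of type and population with at least 50 cells, Cd40 ran from 526 CPM in Langerhans cell-like DCs of MC903 BFP− (489 to 565, 156 cells) down to 258 CPM in other DCs of MC903 BFP+ (249 to 267, 1214 cells). Between these ends it was 445 CPM in other DCs of untreated BFP−, 417 CPM in their Langerhans cell-like, 408 CPM in their less mature cDC1-like and 397 CPM in their mature cDC1-like DCs. Mature cDC1-like DCs of MC903 BFP− followed at 382 CPM. Then came other DCs of MC903 BFP− at 358 CPM and of untreated BFP+ at 332 CPM. DCs of more than 1 gate had 314 CPM in MC903 BFP− and 299 CPM in untreated BFP−, cDC2-like DCs of untreated BFP− 308 CPM and mature cDC1-like DCs of MC903 BFP+ 294 CPM. Of the 12 pairs of neighbours in this order, all overlapped in their intervals except the first pair, the last pair, and mature cDC1-like and other DCs of MC903 BFP−. The first place depended on the gate. With 1 more marker UMI asked for, Langerhans cell-like DCs of MC903 BFP− had 408 CPM (91 cells). In untreated BFP−, Langerhans cell-like DCs then had 507 CPM and other DCs 430 CPM.

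Cd83 had another order. It was highest in other DCs of untreated BFP−, at 1457 CPM (1433 to 1481), and lowest in mature cDC1-like DCs of MC903 BFP+, at 792 CPM (747 to 838). In untreated BFP− DCs it was 1310 CPM in less mature cDC1-like, 1287 CPM in cDC2-like, 1272 CPM in DCs of more than 1 gate, 1171 CPM in Langerhans cell-like and 1012 CPM in mature cDC1-like cells. Other DCs had 1168 CPM in untreated BFP+, 1076 CPM in MC903 BFP− and 962 CPM in MC903 BFP+. In MC903 BFP−, Langerhans cell-like DCs had 1055 CPM, DCs of more than 1 gate 931 CPM and mature cDC1-like DCs 860 CPM. The intervals of neighbours stood apart only between the untreated BFP+ and MC903 BFP− other DCs and below the DCs of more than 1 gate.

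Mature cDC1-like DCs were low in Cd83 wherever they could be compared. Their log2 ratio over other DCs was −0.28 in MC903 BFP+ (−0.37 to −0.19), −0.32 in MC903 BFP− (−0.36 to −0.28) and −0.53 in untreated BFP− (−0.59 to −0.47). Cd40 had ratios of 0.19, 0.09 and −0.16 in the same populations, and its direction in MC903 BFP− turned with the gate. There it was 254 CPM in mature cDC1-like against 383 in other DCs when the gate was set on cells thinned to 2000 UMIs, and 357 against 371 CPM with 1 more marker UMI asked for. In untreated BFP− the thinned gate gave 332 CPM in mature cDC1-like against 438 in other DCs. The cDC2-like DCs of untreated BFP− were lower in Cd40 than other DCs, at −0.53 (−0.75 to −0.32), and less so in Cd83, at −0.18 (−0.28 to −0.08). Langerhans cell-like DCs were above other DCs in Cd40 after MC903, at 0.55 in BFP− (0.44 to 0.66), while the untreated ratio was −0.09 (−0.26 to 0.07). With 1 more marker UMI asked for, Langerhans cell-like Cd40 was 408 CPM in MC903 BFP− and 507 CPM in untreated BFP− DCs, so the order of treatments in this type turned with the gate. Other DCs had 371 and 430 CPM in that setting. The excess of Langerhans cell-like over other DCs was thus smaller after MC903 and was then also present in untreated BFP− DCs.

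**Figure D4:**
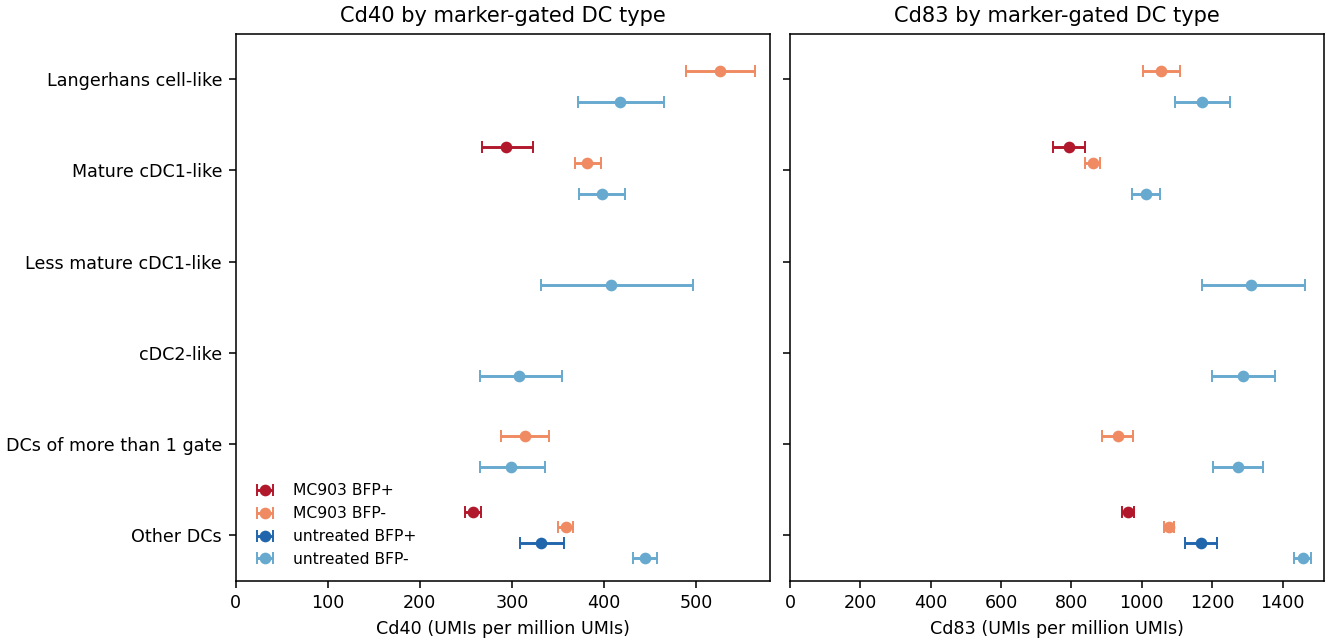
Cd40 (left) and Cd83 (right) in CPM by marker-gated DC type, for each population with at least 50 cells of the type, with exact 95% Poisson intervals. Cd40 was highest in Langerhans cell-like DCs of MC903 BFP−, at 526 CPM, and Cd83 in other DCs of untreated BFP−, at 1457 CPM. The first place of Cd40 depended on the gate, since with 1 more marker UMI asked for this group had 408 CPM. Langerhans cell-like DCs of untreated BFP− then had 507 CPM.

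In the groups with at least 50 cells on both sides, the reporter difference of Cd40 was much the same as in all DCs. After MC903 it was −0.38 in mature cDC1-like (−0.53 to −0.23) and −0.48 in other DCs (−0.54 to −0.42), and in untreated other DCs it was −0.42 (−0.54 to −0.31). For Cd83, the same ratios were −0.12, −0.16 and −0.32. Types with fewer cells varied more in Cd40 after MC903. In cDC2-like DCs it was higher in BFP+, at 462 CPM (33 cells) against 355 in BFP− (41 cells). In Langerhans cell-like DCs it was 285 CPM in BFP+ (20 cells) against 526 in BFP−. Less mature cDC1-like DCs had 301 against 329 CPM and DCs of more than 1 gate 326 against 314 CPM. Between treatments in BFP− DCs, Cd83 was lower after MC903 in each of the 4 groups that could be compared, from −0.15 in Langerhans cell-like to −0.45 in DCs of more than 1 gate. Cd40 was lower in other DCs, at −0.31 (−0.37 to −0.26), near 0 in mature cDC1-like (−0.06, though 254 against 332 CPM with the gate on thinned cells) and DCs of more than 1 gate (0.07), and higher in Langerhans cell-like DCs, at 0.33 (0.14 to 0.53). That last direction turned with 1 more marker UMI asked for, at 408 CPM after MC903 against 507 CPM untreated.

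Genes of CD40 signalling stood apart about as seldom as genes at large. Of 25 measured members of a list of CD40 signalling genes, 1 was higher and 1 lower by 1.5-fold between untreated BFP+ and BFP− DCs, 0 and 1 after MC903, 0 and 1 between treatments in BFP+ and 1 and 1 in BFP− DCs, with medians of −0.01, −0.11, −0.02 and 0.06. Of all genes, 3.29% were higher and 4.38% lower in the first comparison, and 1.24% and 1.49% in the second. The third had 3.49% and 3.95%, and the fourth 4.81% and 5.09%. The counts in the list are thus near the background. Traf5, a TRAF adaptor, was low in BFP+ DCs, at 20.3 CPM in MC903 BFP+ against 31.0 in MC903 BFP− and at 18.6 CPM in untreated BFP+ against 28.5 in untreated BFP−. In untreated mice Traf5 reached 20 CPM only in BFP− DCs, so it entered that count through its higher side. Its untreated ratio rests on 54 and 422 UMIs (−0.61, −1.05 to −0.20). Ebi3, a subunit shared by IL-27 and IL-35, was higher by the 1.5-fold mark in untreated mice, at 95.2 CPM in BFP+ against 58.4 in BFP− DCs, and short of it after MC903, at 97.5 against 66.1 CPM. Il12b, the p40 chain of IL-12, was 88.4 CPM in MC903 BFP+, 102 in MC903 BFP−, 112 in untreated BFP+ and 81.0 in untreated BFP−, so its reporter difference had opposite signs in the 2 captures.

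Between treatments, Tnfaip3, the NF-κB inhibitor A20, was lower after MC903, at 322 against 499 CPM in BFP+ and 314 against 492 CPM in BFP− DCs. Birc3, a ubiquitin ligase bound to TRAF2, had ratios of −0.50 and −0.47 and the kinase gene Chuk −0.50 and −0.45 in BFP+ and BFP− DCs. On the other side, Bcl2l1, the survival gene of BCL-XL, was 70.4 CPM in MC903 BFP+ against 52.1 in untreated BFP+ and 77.9 CPM in MC903 BFP− against 44.9 in untreated BFP−. Nfkb1, the p50 subunit of NF-κB, had ratios of 0.37 and 0.54.

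Genes of class II presentation differed between reporter populations in the opposite direction to Cd83. A list of 11 genes of class II presentation and its turnover, which also held Cd86, had 9 measured members. Its genes of MARCH1 and MARCH8 stayed under 20 CPM. By the 1.5-fold mark, 8 of the 9 were higher in untreated BFP+ than BFP− DCs, Cd86 included. After MC903 6 were higher, without Cd86. The medians were 0.86 and 0.69 and none was lower, where 3.29% and 1.24% of all genes were higher. Ciita, the class II transactivator, was 160 CPM in MC903 BFP+ against 81.0 in MC903 BFP− and 131 CPM in untreated BFP+ against 44.3 in untreated BFP−. H2-Aa, a class II chain, was 7016 against 4347 CPM after MC903 and 6612 against 3549 CPM in untreated mice, and H2-DMa, which edits peptide loading, had ratios of 1.03 and 0.98. Ctss, the protease that trims the invariant chain, was the exception, at −0.21 and −0.28. Between treatments, Cd86, the costimulatory ligand of CD28, was 598 CPM in MC903 BFP+ against 238 in untreated BFP+ and 480 CPM in MC903 BFP− against 132 in untreated BFP−, while 1 and 2 of the 9 genes in all were higher after MC903 in BFP+ and BFP− DCs, against 3.49% and 4.81% of all genes.

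Of 27 genes of DC maturation, 25 or 26 could be compared. Between untreated BFP+ and BFP− DCs 5 were higher and 1 lower, against 3.29% and 4.38% of all genes, and after MC903 1 was higher and 1 lower, against 1.24% and 1.49%. Between treatments 5 were higher in BFP+ and 8 in BFP− DCs and none lower, against 3.49% and 4.81% of all genes higher. The medians of the 4 comparisons were 0.10, −0.03, 0.04 and 0.28 in that order. The member past the mark after MC903 was Cd70, a ligand of CD27, at 40.2 CPM in MC903 BFP+ against 24.8 in MC903 BFP−. Cd80, a second ligand of CD28, was 289 CPM in MC903 BFP+, 209 in MC903 BFP−, 169 in untreated BFP+ and 64.0 in untreated BFP−, an order that set untreated BFP− DCs lowest where Cd40 and Cd83 were highest. Pdcd1lg2, the gene of the PD-1 ligand PD-L2, had treatment ratios of 1.36 in BFP+ (35.3 against 13.8 CPM) and 1.79 in BFP− DCs (41.0 against 11.9 CPM). It reached 20 CPM only after MC903, so it entered both counts through its higher side. Cd70 did the same between treatments in BFP− DCs (24.8 against 13.0 CPM). Between untreated reporter populations, Cd70 reached 20 CPM only in BFP+ DCs (27.2 against 13.0 CPM). Cd200, whose product binds an inhibitory receptor of myeloid cells, had ratios of 0.88 and 1.42. Laptm4b, which served as a mature cDC1 marker, was lower in BFP+ DCs, at −1.52 after MC903 and −1.71 untreated, and reached 20 CPM only in BFP− DCs. Ccr7 itself hardly moved between treatments, with ratios of −0.10 in BFP+ and 0.08 in BFP− DCs, and Ccr7, Fscn1, Cacnb3 and Il4i1 of this list also set the DC gate.

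Within the TNF receptor family, 7 of 19 members reached 20 CPM. Cd40 had the lowest ratio of these 7 between BFP+ and BFP− DCs in both treatments, and Tnfrsf1b, the second TNF receptor, had the lowest between treatments. Tnfrsf1b was 150 CPM in MC903 BFP+ against 245 in untreated BFP+ and 170 CPM in MC903 BFP− against 267 in untreated BFP−. Tnfrsf18, the receptor GITR, was 108 CPM in MC903 BFP+, 98.6 in MC903 BFP−, 92.4 in untreated BFP+ and 50.1 in untreated BFP−. Of the 7, 1 was at least 1.5-fold higher in untreated BFP+ over BFP− DCs, where 3.29% of all genes were, and none was apart after MC903, where 1.24% of all genes were higher and 1.49% lower. Between treatments 1 was lower in BFP+ DCs, where 3.95% of all genes were, and 2 were higher and 1 lower in BFP− DCs, where 4.81% and 5.09% were.

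**Figure D5:**
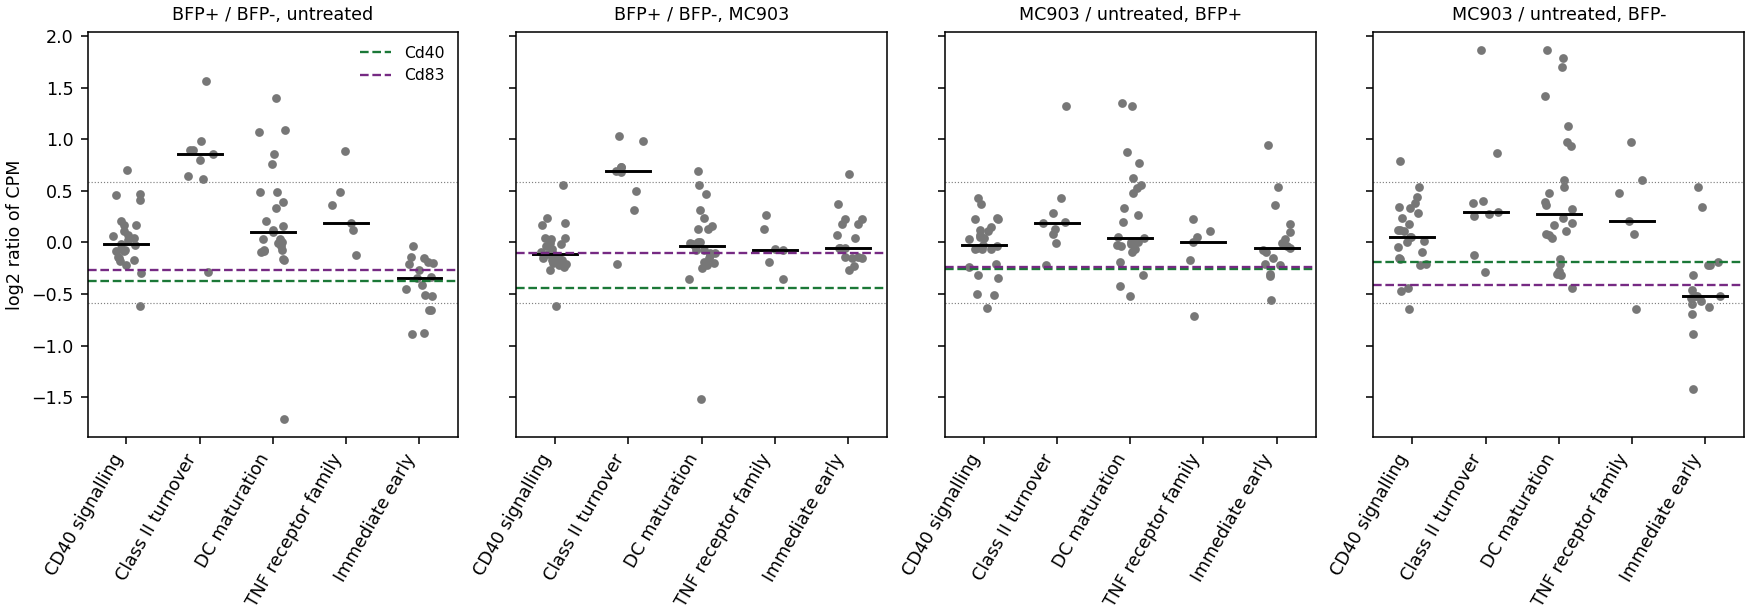
Log2 ratio of CPM of each list member with at least 20 CPM (grey points, black bars are list medians) in the 4 comparisons, with Cd40 and Cd83 as dashed lines and the 1.5-fold mark dotted. Members of the class II list, Cd86 included and Ctss excepted, lay above 0 between BFP+ and BFP− DCs. The list medians were 0.69 and 0.86, while Cd40 and Cd83 lay below 0 in all 4 panels.

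Immediate early genes and heat shock genes, which also respond to tissue handling, were as a set lower in 2 of the 4 comparisons. Their median over 17 genes was −0.34 between untreated BFP+ and BFP− DCs and −0.52 between treatments in BFP− DCs, where Cd83 had −0.27 and −0.41, and −0.05 in both other comparisons, where Cd83 had −0.10 and −0.24. In the first 2 comparisons, 4 and 5 of the 17 genes were lower by 1.5-fold and none higher, where 4.38% and 5.09% of all genes were lower. In each of the other 2, 1 of the 17 genes was higher and none lower. There, 1.24% and 3.49% of all genes were higher and 1.49% and 3.95% lower. The gene was Nr4a1, an early gene of receptor signalling, between MC903 reporter populations, at 0.66. Between treatments in BFP+ DCs it was the early gene Jun, at 0.94. Hspa1a, a heat shock protein gene, was 364 CPM in untreated BFP+ against 673 in untreated BFP−, and 436 CPM in MC903 BFP− against that same 673. Nr4a1 was 23.0 CPM in MC903 BFP− against 61.4 in untreated BFP−. Not every member fell between treatments. Jun was 542 CPM in MC903 BFP− against 374 in untreated BFP−, and 704 CPM in MC903 BFP+ against 366 in untreated BFP+. Ier3, another early gene, had treatment ratios of 0.35 in BFP− and 0.54 in BFP+ DCs. The part of handling in the Cd83 ratios was not tested.

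Ranked by Pearson correlation of log2(CPM + 1) over the 13 combinations of type and population among 4587 genes, the genes most like Cd40 were Dcaf11 (0.85), Zfp950 (0.79), Rbpj (0.78), Snrnp48 (0.77) and S100a1 (0.77). The genes most like Cd83 were Hnrnph1 (0.93), Pum2 (0.93), Pabpc1 (0.92), Mib1 (0.91) and Nop10 (0.91). Cd40 and Cd83 themselves correlated at 0.30. The 13 points come from 2 captures and share their depth, so these values describe likeness of pattern only.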

How the data were processed

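Both captures were deposited as matrices of UMI counts, by gene and by hashtag. Per the file headers the matrices come from Cell Ranger 3.1.0; the submitters' processing notes name GRCm38. Hashtag sequences and their populations are those of the deposited hashtag sheet. The quality filter asked for 500 genes and allowed 10% mitochondrial UMIs, which left 5636 barcodes in the MC903 and 8422 in the untreated capture. HTODemux of Seurat 5.3.0 (quantile 0.99) was an alternative and not the main assignment, because the BFP− hashtag made up 80% or more of the hashtag counts in 278 of its 2417 untreated BFP+ calls. The BFP+ hashtag made up as much in 588 of them. The untreated populations depend strongly on the caller. HTODemux gave 1539 untreated BFP+ and 714 untreated BFP− DCs, with median UMIs of 3001 and 8349.5. The main rule gave 415 and 3602, with medians of 6320 and 2714. The DC gate also asked that its markers hold 0.1% of the UMIs. Barcodes with 2 UMIs and 0.05% of their UMIs from markers of 1 of 6 other lineages were left out, and a DC type needed 2 marker UMIs. Gate thresholds were set after the matrices were seen. No doublet caller was run; an alternative left out the 5% of barcodes with most UMIs.

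UMIs were summed per population and scaled to CPM in Python 3.11.15 (numpy 2.4.6, scipy 1.17.1), with exact 95% Poisson, conditional binomial or Clopper-Pearson intervals for counting error. TMM factors came from edgeR 4.0.16 in R 4.3.3, used for scaling only. The calculation was tested on simulated data. The 2 genes and all lists were chosen with earlier results of these data known. List members were named by rank (up to 3 each way per comparison), as were the 5 most alike genes of each member. Promoter and protein sequences of Cd40 and Cd83 were not used here.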

Additional observations from a re-analysis of the deposited data

Results flagged for a closer look

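Cd40 differed between treatments in opposite directions in 2 groups of BFP− DCs. Its log2 ratio, MC903 over untreated, was 0.33 in Langerhans cell-like DCs (526 against 417 CPM, from 156 and 114 cells) and −0.31 in other DCs (358 against 445 CPM). The difference between the groups was not tested, since each population is 1 pool. With 1 more marker UMI asked of Langerhans cell-like DCs, Cd40 was 408 CPM in MC903 BFP− against 507 CPM in untreated BFP−, from 91 and 50 cells.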

How the results depend on the processing

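Under 11 or 12 alternatives per comparison, the log2 ratios of Cd40 and Cd83 kept their sign, except Cd40 between treatments in BFP− DCs (11 of 12), and none reached 1.5-fold. Causes of the moves were not tested. HTODemux gave −0.37 (Cd40) and −0.22 (Cd83) for BFP+ over BFP− after MC903 and, for Cd83 between treatments, −0.31 in both BFP+ and BFP−. At least 95% from 1 hashtag gave −0.24 (Cd40, treatments, BFP−) and −0.13 (Cd83, BFP+ over BFP−, MC903). At least 50%, chosen after seeing the data, gave −0.14 (Cd40, treatments, BFP−) and, for Cd83, −0.19 (BFP+ over BFP−, untreated), −0.30 and −0.37 (treatments, BFP+ and BFP−). Without a gate, the treatment ratios in BFP+ and BFP− were −0.11 and −0.10 (Cd40) and −0.17 and −0.36 (Cd83). Without any T or B cell marker UMI, Cd40 was −0.52 (BFP+ over BFP−, MC903), −0.41 and −0.27 (treatments, BFP+ and BFP−) and Cd83 −0.36 (treatments, BFP−). At most 5% mitochondrial UMIs gave −0.10 (Cd40, treatments, BFP+), and leaving out the deepest barcodes −0.45 (Cd83, treatments, BFP−). Thinning moved Cd40 to −0.24 (BFP+ over BFP−, untreated), −0.52 and −0.31 (treatments, BFP+ and BFP−). TMM scaling gave −0.077 (Cd40, treatments, BFP−), −0.15 and −0.30 (Cd83, treatments, BFP+ and BFP−). Other DCs alone, also added later, gave −0.37 and −0.31 (Cd40, treatments, BFP+ and BFP−), −0.16 (Cd83, BFP+ over BFP−, MC903) and −0.44 (Cd83, treatments, BFP−). Types with equal weight gave 0.020 (Cd40) and −0.32 (Cd83) between treatments in BFP− and −0.14 (Cd83) for BFP+ over BFP− after MC903; the other comparisons lacked 2 types with 50 cells. Genes apart numbered 385, 130, 367 and 494 (BFP+ over BFP− untreated and MC903, treatments in BFP+ and BFP−), against 1199, 366, 1121 and 1234 from 5 CPM and 3170, 2534, 3183 and 4179 with no filter beyond 1 UMI in each population. Shares of DCs with a UMI in MC903 BFP+, MC903 BFP−, untreated BFP+ and untreated BFP− were 68.0%, 65.7%, 59.0% and 54.5% (Cd40) and 93.3%, 92.6%, 92.3% and 88.7% (Cd83) unthinned, and 17.8%, 21.8%, 22.0% and 27.3% (Cd40) and 53.2%, 52.5%, 57.7% and 65.6% (Cd83) at 1000 UMIs. Of the levels by type and the splits by Ccr7 and Fscn1, 24 moved beyond their counting error and 26 did not.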
